A study of Mus musculus with 4 samples.

Results

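Cultured aortic smooth muscle cells lacking LAMP-2A were set against wild-type cells, both loaded with LDL. The comparison used 2 of the 4 arrays of the study, the one titled L2AKOLDL and the one titled WTLDL. Wild-type (WT) and LAMP-2AKO (L2AKO) vascular smooth muscle cells of C57BL/6J mice were grown from 5 aortas and used between passages 12 and 16. Both were kept for 24 h in DMEM with 5% lipoprotein-deficient serum (LPDS), LDL at 150 µg/ml LDL-cholesterol and 0.1 U/ml bovine lipoprotein lipase. The other 2 arrays, WTCtrl and L2AKOCtrl, held the same cells without LDL and serve here only for reference. The labels do not say whether the lipase was added to those cells. Each array held RNA pooled over a triplicate, which makes every group 1 pooled sample of 1 cell line, and no test between groups could be made. Every difference below is the L2AKO array minus the WT array in log2 units of the 75th-percentile-normalised intensity, and carries no replicate error.

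LAMP-2A is the splice form of the lysosomal membrane protein Lamp2 that serves as the receptor of chaperone-mediated autophagy. In that pathway the chaperone Hspa8 brings single cytosolic proteins to the lysosome, where LAMP-2A passes them inside. Smooth muscle cells of the arterial wall take up lipoproteins, make much of the wall's collagen and elastin, and can lose contractile genes when they are cultured or loaded with cholesterol. Lipoprotein lipase attached to cells helps them bind and take up LDL.

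Of 21367 genes with a probe, 12936 were well above background on both LDL arrays and are called measured. Of these, 1073 were at least 2-fold higher in L2AKO (8.29%) and 1341 at least 2-fold lower (10.4%). All counts of list members below are to be read beside these shares. The median difference of measured genes was -0.05 and the SD of the differences 0.96. Within 1.5-fold lay 62.6% of them. At 8-fold the counts were 98 higher and 135 lower, and at 32-fold 8 higher and 18 lower. Repeated spots of 1 probe give an SD of 0.0730 for a difference of 2 spots, which covers technical spread within an array only. Of the other probes of the higher genes that were measured, 179 of 214 were at least 1.5-fold higher too. For the lower genes this was 258 of 309. The 2-fold share was larger among dim genes, with 12.7% higher and 16.9% lower in the dimmest 25% of measured genes against 4.02% and 4.70% in the brightest 25%.

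**Figure D1:**
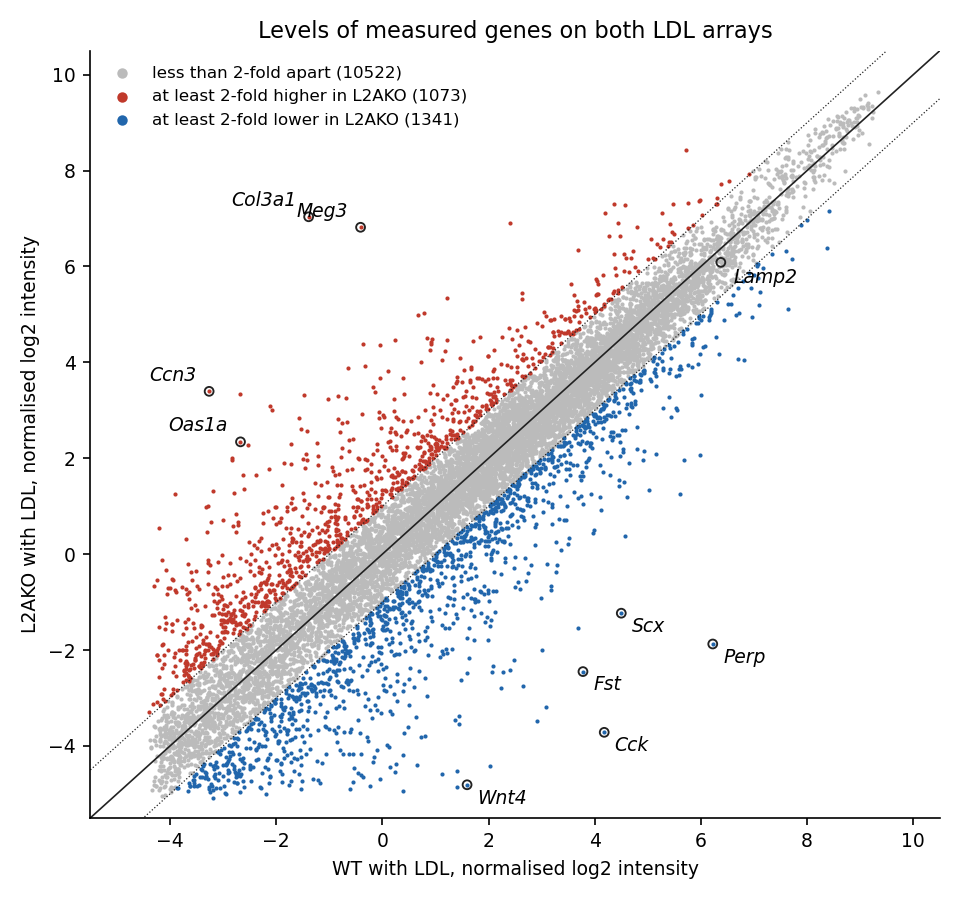
Normalised log2 intensity of 12936 measured genes in WT with LDL (x axis) and L2AKO with LDL (y axis), 1 array each. The solid line marks equal levels and the dotted lines 2-fold; 1073 genes lie above the upper line in red and 1341 below the lower line in blue, with Col3a1 (-1.39 against 7.04) and Perp (6.22 against -1.87) farthest apart.

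The arrays lay on 2 slides, with L2AKOLDL on a slide of its own, so slide and group cannot be told apart. Probes well above background made up 48.4% of the WT array and 52.0% of the L2AKO array, and no spot was saturated. The 8 spike-in controls differed between the arrays by -1.03 to 0.77 after scaling, against -0.49 to -0.03 for the pair without LDL on 1 slide. Scaling by the spike-ins put the median of all genes at 0.37 and scaling by each array's median at 0.15, so every difference below is relative to the 75th percentile. Genes higher in L2AKO made up 44.4% of the 2-fold genes here, 60.05% with median scaling and 74.8% with spike-in scaling.

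Both arrays carried part of the smooth muscle programme. Of 10 smooth muscle markers, Acta2, Tagln, Cnn1, Myl9 and Smtn were measured, while Mylk, Myocd, Myh11, Lmod1 and Des were not well above background on either array. Tagln, the actin-binding protein transgelin, read 3.45 in WT and 4.91 in L2AKO (difference 1.46). Acta2, smooth muscle actin, read 7.21 and 6.55 (difference -0.66). Of the 5 measured markers 3 were at least 2-fold higher in L2AKO and none lower, with a median of 1.04. The summed level of the 10 markers was 7.78 in WT, most of it from Acta2. In L2AKO it was 7.82, with a smaller part from Acta2.

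Markers of other cells also differed. All 15 adventitial fibroblast markers had a probe, 13 were measured, and 5 were higher by that fold and 4 lower in L2AKO. Pi16, a marker of adventitial progenitors, read -2.84 in WT and 2.01 in L2AKO, and the proteoglycan Dcn read 8.37 and 6.39. The summed level of that list was 9.12 in WT and 9.05 in L2AKO. Of 10 measured mesothelial and epithelial markers 5 were lower and 2 higher, and their summed level was 5.91 in WT and 4.55 in L2AKO. Among the lower ones the adhesion protein Cdh1 read 1.09 in WT and -2.15 in L2AKO, and mesothelin, Msln, 4.48 and 2.34. Differences within the list ran from -3.24 to 4.31, so the largest belonged to a higher member. Of the macrophage list Ptprc, Adgre1, Mrc1, Cx3cr1, Tyrobp, C1qa, Fcgr1 and Aif1 were not above background on either array, while 8 of 16 members were measured, 2 at least 2-fold higher and 1 lower. The macrophage lectin Lgals3 read 7.71 in WT and 6.15 in L2AKO, and Cd68 -0.84 and 0.95, and the summed level of the list was 7.89 and 6.91. Of the endothelial list Cdh5, Emcn, Erg, Tie1 and Tek were not above background on either array, and 4 of 8 measured members were at least 2-fold higher and none lower, with a median of 0.98 and summed levels of 3.62 and 4.28. Among them Flt1, a VEGF receptor, read -3.49 and -0.67. Without LDL none of 7 measured endothelial markers was at least 2-fold apart. Their median was then 0.24, and the summed levels were 3.88 in WT and 4.32 in L2AKO. The part of other cells in the differences below was not tested. In such bulk samples, fewer cells of a type and less RNA per cell cannot be told apart.

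The targeted gene, Lamp2, had 2 probes. The brighter one read 6.38 in WT and 6.09 in L2AKO (difference -0.29). The other read 3.74 in WT and 2.41 in L2AKO (difference -1.32), and 3.68 and 2.30 without LDL. Lamp2 lies on the X chromosome, whose measured genes had a median difference of -0.70. Neither the labels nor the files say which probe lies in the deleted part, so the probes do not settle the genotype. Hspa8 was higher in L2AKO with LDL on all 3 of its probes, by 0.76, 0.46 and 0.48. Without LDL the same probes, in that order, differed by -0.0014, 0.023 and 0.56.

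The rest of the chaperone-mediated autophagy list was mostly within 1.5-fold. Of 21 measured members, Phlpp1, a phosphatase that acts on Akt at the lysosome, was the only one at least 2-fold higher, reading -1.09 in WT and 0.46 in L2AKO. Eef1a1, which modulates the receptor complex, read 7.50 and 8.45 (difference 0.95). Rara, the retinoic acid receptor known to restrain the pathway, read 3.73 and 4.53 (difference 0.80). The list's median of 0.33 was above the -0.05 of all genes.

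Among other routes of degradation, macroautophagy and proteasome genes differed little. None of 36 measured macroautophagy genes reached 2-fold, and their median was 0.06. Map1lc3a, an LC3 form that coats autophagosomes, was the lowest of them (3.54 in WT, 2.65 in L2AKO), and the cargo adaptor Sqstm1 read 4.95 and 5.55. Of 42 lysosomal genes, 2 stood 2-fold or more above WT and 1 below, with a median of 0.28. At 1.5-fold 11 of them were higher and 3 lower, against 2182 and 2651 of all 12936 measured genes. The bone and matrix cathepsin Ctsk read -0.64 in WT and 3.88 in L2AKO, and the protease Lgmn 4.06 and 5.43. Cln3, a lysosomal membrane protein, read 1.34 and -0.47. Of 31 proteasome subunits 1 was 2-fold lower, Psma1 (5.49 in WT, 4.34 in L2AKO), and none higher.

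The 20 highest differences, all at least 2-fold under a second normalisation too, were led by extracellular and imprinted genes. Col3a1, the chain of type III collagen, read -1.39 in WT and 7.04 in L2AKO (difference 8.43, 344-fold). Meg3, an imprinted long noncoding RNA, read -0.41 and 6.82 (difference 7.23). Ccn3, a matricellular protein, read -3.26 and 3.40 (difference 6.66). Cell surface receptors followed. Adora2b, an adenosine receptor, read -2.68 in WT and 3.35 in L2AKO, and S1pr3, a receptor for sphingosine 1-phosphate, -2.12 in WT, with a difference of 5.22. Adcyap1r1, the receptor of the neuropeptide PACAP, read -2.83 and 1.97. Secreted and enzyme genes in the same group were Serpinf1 (2.41 in WT, 6.91 in L2AKO), Rspo3, a Wnt-enhancing ligand (-1.57 and 2.84), the basement membrane protein Nid2 (-0.04 and 4.36) and the acid phosphatase Acp5 (0.67 and 4.98). The antiviral enzyme Oas1a (-2.67 and 2.34) belonged to it too. Members of the group not given values here or below included Tro, Fibin, Cracdl, Cryzl2 and Rnf144a.

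At the low end Perp, a desmosomal membrane protein and p53 target, read 6.22 in WT and -1.87 in L2AKO (difference -8.10, 274-fold). Cck, the peptide hormone cholecystokinin, read 4.18 and -3.72 (difference -7.90). Wnt4 read 1.60 and -4.81, and Fst, the secreted activin antagonist follistatin, 3.78 and -2.45. The sodium-calcium exchanger Slc24a3 read 3.09 in WT and -3.19 in L2AKO. The tendon transcription factor Scx read 4.50 and -1.23. Rgs4, which shortens G protein signals, read 1.12 and -4.58, and transferrin, Trf, 2.64 and -2.75. Nes, an intermediate filament of progenitor cells, read 3.01 in WT and differed by -5.01, and the protease inhibitor Serpine2 2.40 and -2.43. Bex4, Mal2, Lrrc75b, Slurp1, Cd93, Neurl1a, Tafa5, Shisa2, Elovl7 and Tnfrsf21 completed the 20 lowest, with differences between -6.46 and -4.82.

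Further genes were above background on 1 of the arrays only, which allows only a bound. It sets the bright value against the detection limit of the dim array (its lowest normalised value among probes passing the background flag), or against the dim value itself where that was higher. WT alone measured 481 genes and L2AKO alone 987. That limit was -4.40 on the WT array and -5.08 on the L2AKO array, so these counts are not on equal terms. The bound reached 2-fold for 421 genes lower and 238 genes higher in L2AKO, and 8-fold for 95 and 47. These bounds were counted only for genes with no other probe above background on the dim array. Sfrp2, a secreted Wnt antagonist, read 4.44 in WT and was at least 732-fold lower in L2AKO. Irx1, a patterning factor, read 3.47 and was at least 375-fold lower, and the adhesion protein Cdh13 read 2.85 and was at least 243-fold lower. Insulin-like growth factor 2, Igf2, read 1.20 in WT and was at least 77.7-fold lower. Igf2os, the antisense transcript of the same locus, was at least 71.0-fold lower, and probes of overlapping transcripts can share signal. On the other side Ebf3, a transcription factor of mesenchymal cells, read 2.36 in L2AKO and was at least 108-fold higher. The inflammatory protease Casp1 was at least 36.8-fold higher, Enpp1, which makes the calcification inhibitor pyrophosphate, at least 30.2-fold, Pla2g7, the lipoprotein-associated phospholipase, at least 27.3-fold, and the fibroblast protease Fap at least 25.4-fold higher. The matricellular gene Ccn6 was at least 64.1-fold lower in L2AKO with LDL (0.93 in WT), but it was not above background in either line without LDL. Slc2a2, a glucose transporter at least 15.2-fold higher in L2AKO with LDL, was likewise below background in both lines without LDL.

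Position on the chromosomes went with the differences, a pattern chosen for report after it was seen. The 432 measured genes of chromosome 12 had a median of 0.80, and 35.4% of them were at least 2-fold higher in L2AKO. The 409 measured genes of the X chromosome had a median of -0.70, and 30.6% were at least 2-fold lower. Medians of the other chromosomes summarised ran from -0.35 (chromosomes 7 and 13) to 0.22 (chromosome 17). Cut into 10 stretches in gene order, every stretch of chromosome 12 had a median between 0.58 and 0.90, and every stretch of the X chromosome one between -0.98 and -0.49. Chromosome 12 held 3.34% of measured genes but 14.3% of those at least 2-fold higher, and the X chromosome held 3.16% but 9.32% of those at least 2-fold lower. Without LDL, on arrays of 1 slide, the medians over genes measured on all 4 arrays were 0.90 for chromosome 12 and -0.54 for the X chromosome. The response to LDL within a line had no such pattern, with chromosome medians from -0.07 to -0.01 in WT and from -0.11 to -0.05 in L2AKO. Of the highest genes Meg3, Mirg and Rnf144a lie on chromosome 12, and Tro on the X chromosome. The Y-linked genes Ddx3y (1.62 in WT, 2.31 in L2AKO), Eif2s3y (3.86 and 4.41) and Uty were measured on both arrays, while Xist was not above background on any of the 4. The DNA content of the lines was not analysed here.

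**Figure D2:**
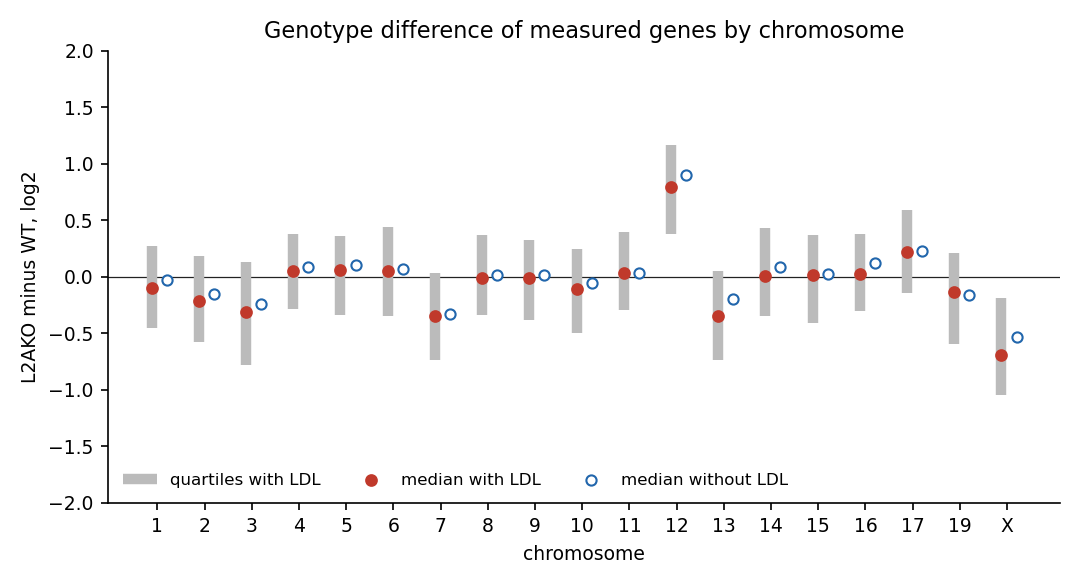
Difference L2AKO minus WT in log2 units (y axis) by chromosome (x axis): red points are medians of measured genes with LDL, grey bars their quartiles, and open blue points the medians without LDL. Chromosome 12 stands at 0.80 with LDL and 0.90 without, and the X chromosome at -0.70 and -0.54; chromosome 18 is not shown.

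Genes of mitosis were lower in L2AKO without exception among those measured. All 35 measured members of the mitosis list were at least 2-fold lower, against 10.4% of all measured genes, and their median was -2.53. Values for the spindle genes were 1.94 in WT and -1.42 in L2AKO for Nusap1, which bundles microtubules, and 3.50 and 0.21 for Prc1, which crosslinks the central spindle. Ccnb1, cyclin B1, read 3.51 and 0.34, and the mitotic kinase Plk1 4.13 and 0.92. Mki67, the proliferation antigen Ki-67, read 3.47 and 0.71. The regulators Foxm1 and Mybl2, transcription factors of the late cell cycle, read 0.69 and -1.10, and 1.50 and -0.25. Anln, an actin-binding protein of the cleavage furrow, was the least different member at -1.03. Members ran from -3.36 to -1.03, while the quartiles of all measured genes were -0.47 and 0.36.

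Genes of DNA replication followed with 27 of 41 measured members at least 2-fold lower and none higher (median -1.44). E2f8, an E2F factor, read -0.26 in WT and -3.91 in L2AKO. Tk1, thymidine kinase, read 3.42 and 0.72, and the replicative helicase subunit Mcm5 3.19 and 0.62. Pcna, the sliding clamp, read 5.16 and 3.73. Mcm6 (-0.90) and Mcm7 (-0.84), of the same helicase, differed by less than 2-fold, and Gins3 was the only member above 1.5-fold the other way (5.83 and 6.55). Without LDL the medians were -2.70 for mitosis and -1.40 for replication, so both lists stood at about the same distance in either medium.

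Promoters of many mitosis genes hold the letters TTTGAA, known as the cell cycle genes homology region, which binds repressor and activator complexes of the late cell cycle. Searched on both strands in the 250 bases before to 50 bases after the start site, it was found for 21 of 29 measured members with a RefSeq promoter (72.4%), against 14.4% of 10321 measured genes with one and 17.9% of all promoters. Among all measured genes it was present in 19.2% of the 2-fold lower, 15.2% of the 2-fold higher and 13.7% of the others. The 150 bases before the start site of the 3 members lowest in L2AKO that hold it there are shown because they carry that shared letter string, 5′ to 3′ on the gene's strand from RefSeq GRCm38.p6, with TTTGAA or its complement in capitals. They are Kif11 at chr19:37376232-37376381 (plus strand), Prc1 at chr7:80294326-80294475 (plus strand) and Ect2 at chr3:27153855-27154004 (minus strand).
Kif11: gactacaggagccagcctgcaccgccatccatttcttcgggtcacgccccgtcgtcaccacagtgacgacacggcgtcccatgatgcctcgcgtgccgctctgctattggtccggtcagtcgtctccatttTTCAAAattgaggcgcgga
Prc1: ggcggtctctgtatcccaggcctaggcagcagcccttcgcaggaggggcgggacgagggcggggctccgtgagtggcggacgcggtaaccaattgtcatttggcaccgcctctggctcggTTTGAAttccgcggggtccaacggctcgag
Ect2: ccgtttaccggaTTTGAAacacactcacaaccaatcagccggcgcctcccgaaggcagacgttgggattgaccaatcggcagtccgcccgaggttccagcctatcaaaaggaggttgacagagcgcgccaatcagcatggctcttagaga
Kif11, the spindle motor, read -0.42 in WT and -3.74 in L2AKO, and Ect2, an activator of cleavage, 2.00 and -0.81. A match is a description of the letters and says nothing of binding in these cells.

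The list of cell cycle inhibitors and p53 targets as a whole did not stand opposite to the proliferation genes. It also held the D-type cyclins Ccnd1, Ccnd2 and Ccnd3, which are not inhibitors. Of 35 measured members, 12 were at least 2-fold lower in L2AKO and 1 higher, with a median of -0.57. Cdkn1c, an imprinted inhibitor of cyclin-dependent kinases, read 1.36 in WT and -3.45 in L2AKO. Ccnd1, cyclin D1, which is counted among the 12 lower, read 6.70 and 4.07. Cdkn1a, p21, was lower by less than 2-fold (4.55 and 3.62), as was Mdm2, which marks p53 for degradation (6.99 and 6.14). Gadd45a, a stress-response gene, was the only one at least 2-fold higher (1.02 and 3.34). Of the BCL2 family 3 of 16 were lower and none higher (18.8% lower, against 10.4% of all measured genes), among them the death promoter Bbc3 (3.63 and 2.42) and the survival gene Bcl2 (0.89 and -0.34).

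**Figure D3:**
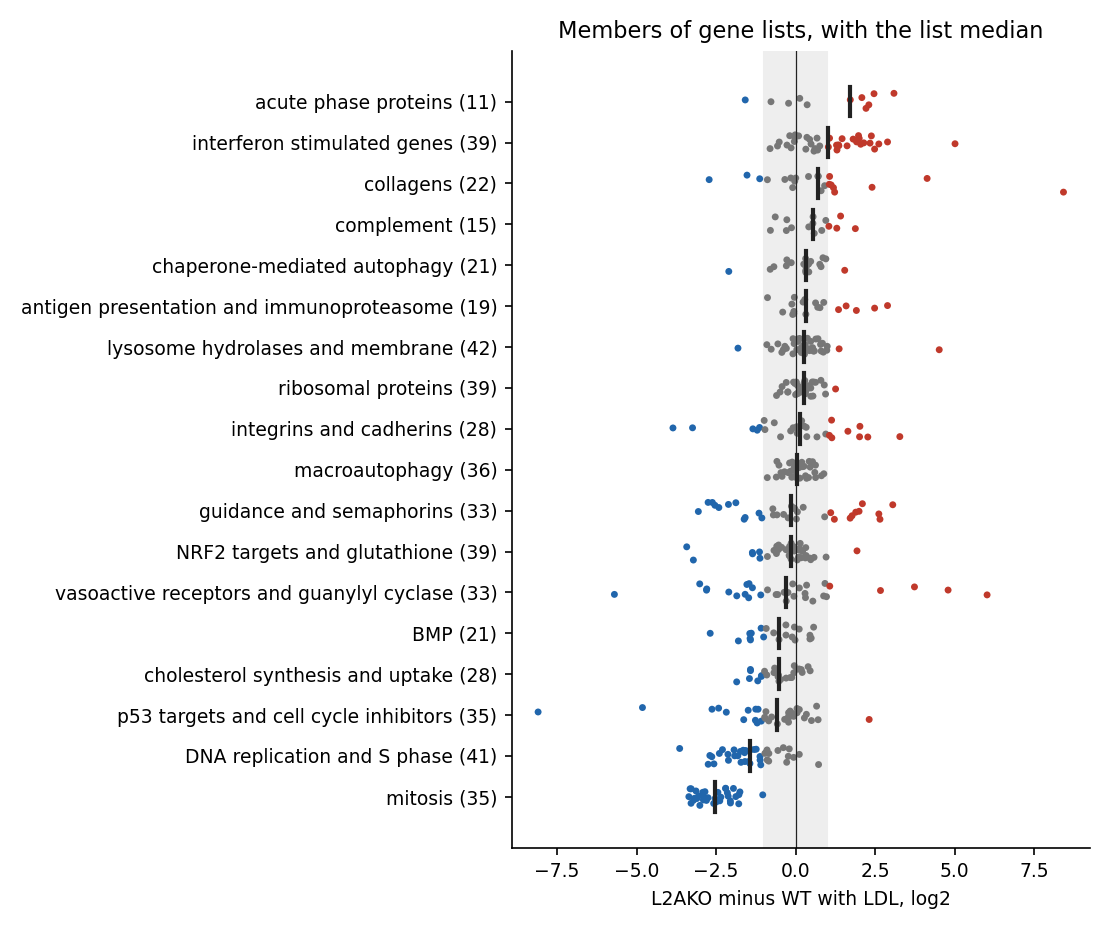
Difference L2AKO minus WT with LDL in log2 units (x axis) of each measured member of 18 gene lists, ordered by list median (black bars), with the number of measured members in brackets. The grey band spans 2-fold either way, and points past it are red (higher) or blue (lower); the mitosis list lies wholly below -1 with a median of -2.53, and the interferon-stimulated list has 20 of 39 points above 1.

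Interferon-stimulated genes, the antiviral genes switched on downstream of interferon receptors, were higher in L2AKO with LDL. Of 50 listed genes 47 had a probe and 39 were measured, 20 at least 2-fold higher and none at least 2-fold lower, against 8.29% and 10.4% of all measured genes. Their median was 1.03. Without LDL 43 members were measured, with a median of 0.05, 6 higher and 2 lower. The 2 lower without LDL, Cxcl10 (-2.34) and Ifi44 (-1.78), were not measured on both LDL arrays, so the counts cover different members. The ubiquitin-like modifier Isg15 read 3.21 in WT and 3.06 in L2AKO without LDL, and -0.01 in WT and 2.04 in L2AKO with LDL. The 3 other arrays were thus closer to each other than to WT with LDL. The same held for Usp18, which removes that modifier, at -2.49 in WT and -0.35 in L2AKO with LDL. It also held for Rtp4 (-0.58 and 1.77), Oasl2 (-1.67 and 0.94) and the RNA-binding Ifit1 (-1.39 and 0.42).

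A second set differed in both media. Oas1a, which makes the messenger that activates RNase L, differed by 5.02 with LDL and 2.83 without. Its 4 values were 0.48 in WT and 3.31 in L2AKO without LDL, and -2.67 and 2.34 with LDL. The guanylate-binding protein Gbp2 read 0.39 and 2.77 with LDL and differed by 1.85 without. The immunoproteasome subunits Psmb8 (-2.25 and 0.64) and Psmb9 (-0.81 and 1.67) belonged to it as well. Oas2 was measured with LDL in L2AKO only, where the bound of its difference was 3.80. The opposite bound belonged to the chemokine Cxcl10, which read -1.51 in WT and was at least 11.8-fold lower in L2AKO. Ifi203 was the lowest measured member (-0.14 and -0.95), and Ifitm3, an antiviral membrane protein, differed by -0.51. Removing the dimmest 25% of measured genes left 12 members at least 2-fold higher.

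**Figure D4:**
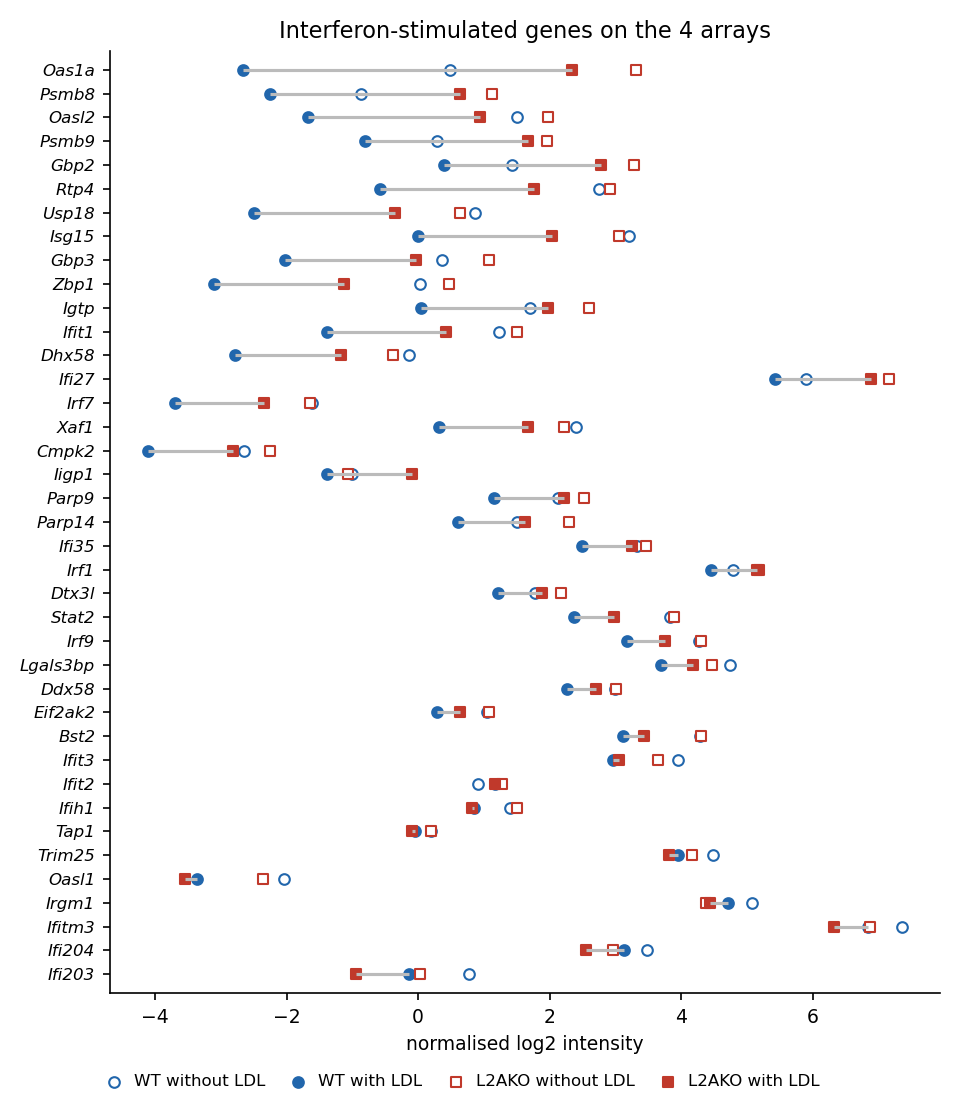
Normalised log2 intensity (x axis) of the 39 measured interferon-stimulated genes (rows, ordered by their difference with LDL) on the 4 arrays: blue circles are WT, red squares L2AKO, filled symbols with LDL and open ones without. A grey line joins the LDL arrays of a gene; Isg15, for example, lies at -0.01 in WT with LDL and at 2.04, 3.06 and 3.21 on the other arrays.

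The promoter letters GAAANNGAA, the core of the interferon-stimulated response element, were found for 16 of 30 measured members with a RefSeq promoter (53.3%) against 8.33% of measured genes and 8.56% of all promoters, in the same window and on both strands. They were about as frequent in members at least 2-fold higher (6 of 12) as in the others (10 of 18). The first GAA can also be the end of a TTTGAA. The 150 bases before the start site are shown for the 4 members highest in L2AKO that hold the element there, and for Ifih1, the measured member with the element whose difference was nearest to 0. Capitals mark the element or its complement, from RefSeq GRCm38.p6 on the gene's strand. Oas1a lies at chr5:120907526-120907675 (minus strand), Gbp2 at chr3:142620513-142620662 (plus strand), Isg15 at chr4:156200819-156200968 (minus strand), Gbp3 at chr3:142559894-142560043 (plus strand) and Ifih1 at chr2:62646256-62646405 (minus strand).
Oas1a: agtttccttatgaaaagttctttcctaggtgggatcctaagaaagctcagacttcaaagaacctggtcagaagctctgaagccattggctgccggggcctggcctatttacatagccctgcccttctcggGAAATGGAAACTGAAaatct
Gbp2: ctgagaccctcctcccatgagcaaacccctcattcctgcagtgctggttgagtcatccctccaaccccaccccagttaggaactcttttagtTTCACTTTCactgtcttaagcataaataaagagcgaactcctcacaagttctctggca
Isg15: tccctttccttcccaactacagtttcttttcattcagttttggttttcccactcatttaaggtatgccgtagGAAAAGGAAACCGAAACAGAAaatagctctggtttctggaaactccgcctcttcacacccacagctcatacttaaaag
Gbp3: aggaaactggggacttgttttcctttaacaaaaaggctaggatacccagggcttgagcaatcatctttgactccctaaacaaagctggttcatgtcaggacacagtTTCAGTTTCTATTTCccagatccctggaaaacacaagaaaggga
Ifih1: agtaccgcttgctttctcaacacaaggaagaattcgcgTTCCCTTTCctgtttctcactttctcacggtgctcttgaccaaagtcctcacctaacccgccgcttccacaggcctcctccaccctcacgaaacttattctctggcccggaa
Oas1a, Gbp3 and Isg15 hold overlapping copies in these bases, 2, 2 and 3 in number. Ifih1, a sensor of double-stranded RNA, holds 1 here and 1 more after the start site and differed by -0.02, so the letters alone did not go with the difference.

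Genes that carry the interferon signal did not move as a group, with 3 of 28 measured members at least 2-fold higher, 2 lower and a median of -0.07. The RNA sensor Tlr7 was the highest (-1.42 in WT, 0.97 in L2AKO) and the DNA sensor Cgas the lowest (1.32 and -0.50). The receptor chain Ifngr1 read 4.94 and 3.78, and its kinase Jak2 3.08 and 2.24. Antigen presentation genes had 5 of 19 measured members higher (26.3%), none lower and a median of 0.32. Besides Psmb8 and Psmb9 these were the immunoproteasome subunit Psmb10 (4.56 and 5.91) and the class I molecules H2-T23 (4.59 and 6.18) and H2-M3 (0.26 and 2.18). Tap1, the peptide transporter, differed by -0.04.

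Chemokines and NF-kB targets went both ways. Of 16 measured chemokines 6 were at least 2-fold lower and 2 higher (median -0.36), a median that was 0.06 with spike-in scaling. The neutrophil attractants Cxcl5 (1.60 in WT, -2.47 in L2AKO) and Cxcl1 (3.76 and 2.70) were lower, as was Ccl9 (0.80 and -2.59). The monocyte attractants Ccl8 (-3.96 and -0.52) and Ccl7 (4.25 and 5.31) were higher. Among NF-kB targets 6 of 25 were higher and 6 lower. Ptgs2, the inducible cyclooxygenase, read 1.73 and -1.79, and the macrophage growth factor Csf1 6.04 and 4.33. Tnfaip2 (-1.02 and 3.24) and the RNase Zc3h12a (-3.29 and -0.37), both induced by inflammatory cytokines, were higher.

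Acute phase genes had 6 of 11 measured members at least 2-fold higher and 1 lower, against 8.29% and 10.4% of all measured genes, with a median of 1.72. That median was 0.30 when dim probes were not filtered, and without LDL it was 0.57 with 6 higher and 3 lower. Saa3, serum amyloid A3, read 1.54 in WT and 3.84 in L2AKO, and Saa1 -0.30 and 1.79. The lipopolysaccharide-binding protein Lbp read 0.90 and 3.37, and the metalloreductase Steap4 -3.88 and -0.79. The iron-binding lipocalin Lcn2 was the one lower (-0.99 and -2.57). Of 15 complement genes 4 were higher (26.7%) and none lower. Among the higher were C1s1, a protease of the classical pathway (5.18 and 6.47), the protective receptor Cd55 (2.64 and 4.06) and factor B, Cfb (-2.75 and -0.87).

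Cholesterol synthesis and uptake genes stood lower in L2AKO in both media. With LDL 7 of 28 measured members were at least 2-fold lower and none higher, against 10.4% and 8.29% of all measured genes, with a median of -0.53. Without LDL 10 of 29 were lower and 1 higher, with a median of -0.57. Idi1, which isomerises isopentenyl diphosphate, read 2.54 in WT and 0.69 in L2AKO. Fdps, which makes farnesyl diphosphate, read 4.30 and 2.88. Hmgcs1, which makes HMG-CoA, differed by -1.07. The regulators Srebf2 (0.07 and 0.11) and Insig1 (-0.65 and -0.77) were within 1.5-fold. The count of lower members was 4 with median scaling and 2 with spike-in scaling.

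Targets of the sterol receptor LXR and efflux genes had 5 of 18 measured members at least 2-fold higher (27.8%) and 1 lower (5.56%), with a median of 0.21. Apoe, the apolipoprotein that accepts cholesterol, read 0.73 in WT and 4.02 in L2AKO, and the exporter Abca1 differed by 1.19. Nr1h3, LXR alpha itself, read 0.92 and 2.47. The oxysterol enzymes Ch25h (difference 3.29) and Cyp7b1 (difference 3.75) were higher as well. Osbpl5, an oxysterol-binding protein, read 5.58 and 4.42. Lipoprotein and scavenger receptors were 2 higher and 2 lower of 19 measured. Lrp1, a large endocytic receptor, read 4.81 and 5.90, and Colec12, a scavenger receptor, -0.76 and 2.74. The scavenger receptor Scara5 read 0.14 and -1.60, and Lsr was at least 10.9-fold lower.

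Fatty acid genes differed at single steps. The elongase Elovl6 read 0.89 in WT and -0.52 in L2AKO, whereas the desaturase Scd1 read 0.75 and 2.04. Of 24 measured genes of fatty acid oxidation and the PPAR response 4 were higher and 1 lower. Pparg, the adipogenic nuclear receptor, read 1.99 and 3.66, the lipoprotein lipase inhibitor Angptl4 5.99 and 7.39. The fatty acid carrier Fabp3 differed by 1.90. Of 20 lipid droplet genes 3 were higher and 3 lower (15% each). G0s2, an inhibitor of triglyceride lipase, read -1.37 and -4.07, and Dgat2, which makes triglyceride, 0.54 and -1.44. Mgll, monoglyceride lipase, read 1.65 and 3.60.

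Matrix genes were among those higher in L2AKO. Of 22 measured collagens 8 were at least 2-fold higher and 3 lower, against 8.29% and 10.4% of all measured genes. Their median was 0.71 with LDL and 0.33 without, and 0.0055 with LDL when dim probes were not filtered. Beside Col3a1 the higher ones included Col8a1 (-0.83 in WT, 3.30 in L2AKO), Col11a1 (-0.11 and 2.30) and, with smaller differences, Col8a2 (1.23), Col5a1 (1.19) and Col6a2 (1.12). The chains of type I collagen, Col1a1 (6.51 and 7.21) and Col1a2 (8.02 and 8.74), were less than 2-fold apart. Col12a1 read 1.18 and -1.54, and Col14a1 4.87 and 3.75. Of 28 elastic fibre and crosslinking genes 8 were higher and 3 lower. The crosslinking enzymes Loxl1 (0.91 and 4.38) and Lox (2.91 and 4.82), and the fibre proteins Fbln5 (4.57 and 7.27) and Mfap4 (-3.60 and -0.36), were higher. Elastin itself, Eln, was dim on both arrays (-4.17 and -4.78).

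Proteoglycans and adhesive matrix proteins had 10 of 32 measured members higher and 3 lower. The laminin chains Lama2 (-1.41 and 2.58) and Lama4 (0.40 and 3.35) and the thrombospondin Thbs2 (0.84 and 4.51) were higher. Thbs1 went the other way (7.64 and 5.12), as did decorin, named above. Among proteases and inhibitors 9 of 30 were higher and 6 lower. Mmp2, a gelatinase, read 5.03 in WT and 1.34 in L2AKO, while Mmp23 read 0.78 and 5.03 and Adam19 1.67 and 3.91. Timp4 was lower with LDL (-3.00 and -4.40) and not above background in either line without. In the CCN family Ccn1, an adhesive immediate early gene, read 5.62 and 3.87.

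Of 21 measured BMP genes 8 were at least 2-fold lower and none higher, against 10.4% and 8.29% of all measured genes. Their median of -0.52 was -0.10 with spike-in scaling. A bound below was found for 3 more members and a bound above for 2. Id1 (6.00 in WT, 3.32 in L2AKO), Id2 (3.24 and 1.82) and Id3 (4.91 and 3.83), the inhibitory factors induced by BMP signals, were lower together with the antagonists Grem1 (5.97 and 4.18) and Nog (-1.34 and -2.73). Of 32 TGF-beta and activin genes 6 were lower (18.8%) and 1 higher (3.1%), the latter the receptor Acvrl1 (difference 3.48). Tgfb3 read 4.87 and 3.43, and Gdf15, a stress cytokine, 4.75 and 3.20. Tgfb1 differed by 0.72.

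Wnt genes were 7 higher and 6 lower of 29 measured (24.1% and 20.7%), with 4 more at a bound below and 1 above. Receptors Fzd1 (difference 2.75) and Fzd4 (0.40 and 2.00) were higher, and so were Nkd1, a feedback inhibitor (0.26 and 2.86), and Notum, which inactivates Wnt ligands (difference 1.82). The antagonists Sfrp4 (-1.07 and -4.17) and Frzb (2.34 and 0.66) were lower, while Sfrp1 was higher (-1.99 and 0.64). Wnt10a and Wnt6 were measured in WT only, at least 25.8-fold and 12.6-fold lower in L2AKO. Of 37 genes of PDGF, FGF, EGF and VEGF signalling 7 were higher and 9 lower. Gas6, a ligand of TAM receptors, read 5.69 and 1.97, and neuregulin Nrg1 5.52 and 3.05. Dusp6, a feedback phosphatase of ERK, read 3.14 and 1.46, and Pdgfra 3.12 and 1.98.

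The IGF axis had 5 of 16 measured members higher and 3 lower (median 0.85). The binding proteins parted. Igfbp3 read 1.12 in WT and 4.04 in L2AKO and Igfbp6 3.68 and 5.18, whereas Igfbp2 read 3.30 and -0.23, and Igfbp5 was at least 17.3-fold lower. Igf1 read 1.38 and 2.49. Of 16 retinoid genes 3 were higher and 3 lower (18.75% each). Aldh1a2, which makes retinoic acid (2.60 and -0.73), and Cyp26b1, which degrades it (3.36 and 0.09), were both lower. Dhrs3, which turns retinal back to retinol, was higher (4.48 and 6.63). In the Notch list of 12 measured genes 3 were lower and 1 higher, the noncanonical ligand Dlk1 (0.90 and 4.26), which is imprinted with Meg3. Lfng, Jag2 and the nuclear effector Rbpj (4.23 and 2.91) were lower.

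Imprinted genes held some of the largest values in both directions. At 2-fold, 4 of 17 measured members were higher and 3 lower. In the Dlk1-Meg3 cluster of chromosome 12, Dlk1, Meg3 and Mirg were higher, by 3.36, 7.23 and 4.79, but Dio3, which inactivates thyroid hormone, was lower (-0.24 in WT, -4.85 in L2AKO). In the cluster of H19 and Igf2, H19 read 4.27 and 2.90, beside the bound of Igf2. Grb10, an adaptor that restrains insulin receptors, was at least 27.6-fold higher.

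Genes of positional identity went both ways. Hoxc6 (-0.84 in WT, 2.82 in L2AKO), Hoxb7 (1.82 and 3.67) and Hoxb8 (-1.96 and 0.12) were among 4 of 18 measured Hox genes at least 2-fold higher, and no measured one was 2-fold lower. Hoxb5 (2.51 and 1.71) and Hoxc9 (-1.90 and -2.66), of the same clusters, were lower by less than 2-fold. Hoxd8, Hoxa10 and Hoxd4 were above background in WT only, at least 66.0-fold, 19.2-fold and 16.7-fold lower in L2AKO. A bound below was found for 5 Hox genes and one above for 3, the latter no larger than 1.56 in log2 units (Hoxc8). Of 41 patterning factors 10 were higher and 10 lower. The forkhead genes Foxf1 (3.94 and 1.25), Foxf2 (2.69 and -0.08) and Foxd1 (0.18 and -3.33) were lower and Foxc2 (-0.64 and 2.39) higher. Twist1 (-0.86 and 1.45) and Klf2 (-0.90 and 1.65), a flow-responsive factor, were higher. Hand2 and Gata4, factors of heart and vessel development, were above background in WT only, at least 11.8-fold and 6.61-fold lower.

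Contractile genes went both ways, with 4 of 23 measured members higher, 6 lower and a median of -0.27 that was 0.15 with spike-in scaling. Mrvi1, a target of cGMP kinase, read -0.20 in WT and -3.43 in L2AKO, and Rgs5, a pericyte and muscle regulator, 0.92 and -1.88. The calponin Cnn1 (0.35 and 1.39) and myosin light chain Myl9 (5.44 and 6.50) were higher. Of 33 vasoactive receptors and regulators 12 were lower and 5 higher. Avpr1a, a vasopressin receptor, read -0.45 and -3.47, and Agtr1a, the angiotensin II receptor, was at least 10.4-fold lower. Ednra, an endothelin receptor, was higher (-4.07 and -0.33). The channels Ano1, a calcium-activated chloride channel (4.54 and 2.19), and Cacna1c, the L-type calcium channel (3.74 and 1.55), were lower. Of 26 measured channels and pumps 6 were lower (23.1%) and 4 higher (15.4%). Of 15 measured lysophospholipid and prostanoid receptors 4 were lower and 2 higher, with 4 more at a bound above and 1 below. S1pr1 stood at a difference of -2.44 against Tbxa2r, the thromboxane receptor, at a difference of 2.86.

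Adhesion and guidance genes went both ways. Of 28 measured integrins and cadherins 8 were higher and 5 lower. Itga6, a laminin receptor chain, read 3.18 in WT and -0.67 in L2AKO, while N-cadherin, Cdh2, read 4.80 and 6.82 and P-cadherin, Cdh3, 0.40 and 3.67. Of 33 guidance genes 10 were higher and 11 lower. Semaphorins Sema3c (5.54 and 3.01) and Sema3f (4.80 and 2.19) were lower, whereas Sema5a (1.18 and 4.23) and Sema3e (-1.91 and 0.75) were higher. The semaphorin receptors Nrp2 (0.02 and -2.40) and Nrp1 (-0.12 and 1.60) differed in opposite ways as well. Among calcification genes Mgp, an inhibitor of vessel calcification, read 4.44 and 6.92. Msx1 (-0.03 and -3.32) and Msx2 (-0.73 and -3.22), bone-forming homeobox factors, were lower.

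Stress programmes showed no group as uniform as the cell cycle. Of 39 measured NRF2 targets and glutathione genes 6 were lower (15.4%, against 10.4% of all measured genes) and 1 higher. Sod3, the extracellular superoxide dismutase, read 4.61 in WT and 1.19 in L2AKO, and Gclc, which sets glutathione synthesis, 5.44 and 4.08. Gpx7 read -0.22 and 1.71. Of 31 genes of the unfolded protein and integrated stress response 6 were lower and none higher, among them Atf3 (0.18 and -1.83), Trib3 (2.30 and 1.05) and the serine enzyme Phgdh (4.15 and 2.63). Hspb1, a small heat shock protein, was higher (4.73 and 6.32) and inducible Hspa1a lower (-0.91 and -2.27). Of 36 respiratory chain genes 1 was higher and 1 lower, and of 39 ribosomal protein genes 1 was higher, Rpl4 (6.52 and 7.78). Among glycolysis genes 5 of 29 were higher, such as the lactate exporter Slc16a3 (0.23 and 2.55), and the glucose transporter Slc2a1 was lower (4.35 and 2.97).

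Set beside the pair without LDL, which shares no array with this one but the same lines, most large differences recurred. Over 12492 genes measured on all 4 arrays the differences correlated with r = 0.917 (Spearman rho = 0.841), a description across genes, which are not replicates. Of 1038 genes at least 2-fold higher with LDL, 737 were so without (71.0% of the first list, 79.4% of the other). Of 1193 lower with LDL, 876 were so without (73.4% and 85.5%). Higher with LDL but within 1.5-fold without were 146 genes, and lower in that manner 75. The guanine nucleotide exchange factor Iqsec3 read 2.63 in WT and 5.44 in L2AKO with LDL and differed by -1.02 without. Oas1d (-3.50 and -1.17) and Tlr7 differed by -0.34 and -0.02 without LDL. Ndnf, a secreted factor, differed by -4.20 with LDL and -2.12 without, and the cadherin Celsr2 by -2.25 and 0.33. Krtap1-4 read -1.23 in WT and -4.31 in L2AKO with LDL and differed by 0.23 without. Since L2AKOLDL alone lay on the second slide, slide and medium cannot be told apart in this contrast.

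**Figure D5:**
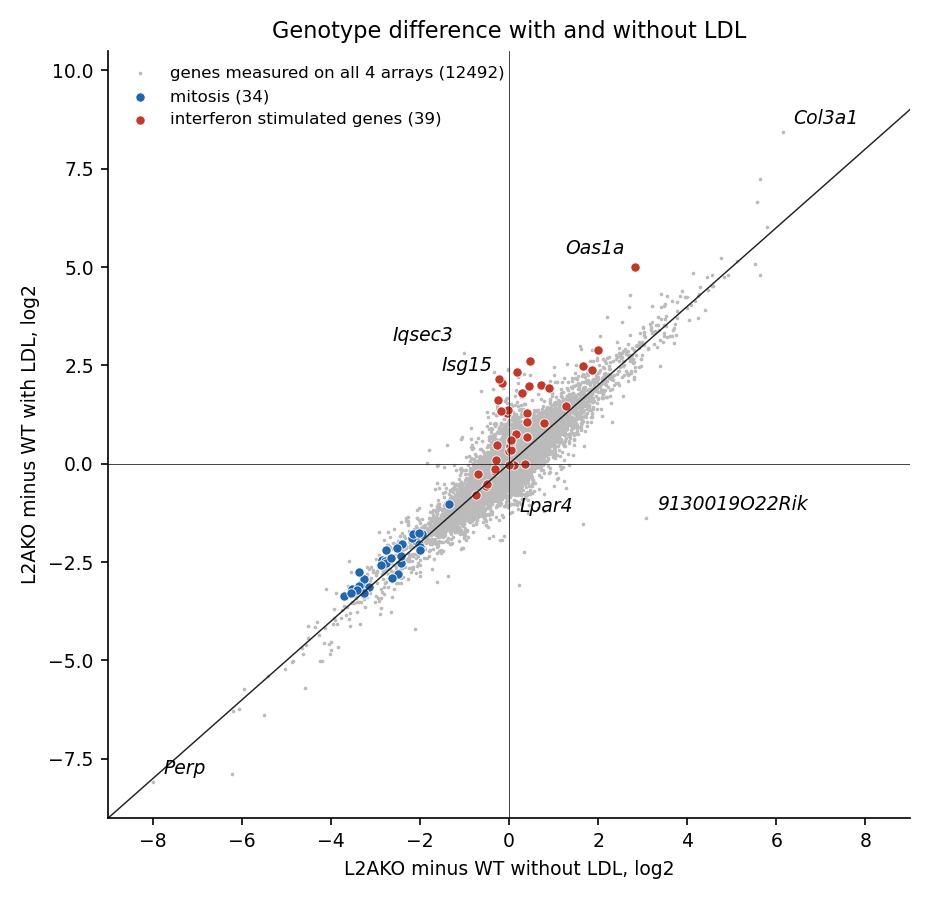
Difference L2AKO minus WT in log2 units without LDL (x axis) and with LDL (y axis) for 12492 genes measured on all 4 arrays, with the line of equality. Mitosis genes (blue) lie near the line, while interferon-stimulated genes (red) lie mostly above it. The median of that list was 0.05 over 43 members measured without LDL and 1.03 over 39 measured with LDL.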

How the data were processed

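Each of the 4 one-colour Agilent arrays held Cy3-labelled RNA of 1 group. The deposited intensity values come, per the file headers, from version 10.7.3.1 of the Feature Extraction software, which subtracts background and detrends each array but does not scale arrays to each other. The authors' deposited value table is linear intensity whose scaling is unknown. The submitters' processing notes name oligo and RMA without versions. No genome of the files' mm9 build was used.

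Control spots and outlier spots were left out and log2 was taken of each spot. The log2 values of 55679 probes were averaged over repeated spots, and each array's 75th percentile subtracted. RefSeq GRCm38.p6 accessions named 28330 probes for 21367 genes, leaving 27349 unnamed; the brightest probe over the 4 arrays stood for a gene. A gene counted as measured where the scanner software marked it well above background on both LDL arrays. Calls used 2-fold, with 1.5-fold beside it. With 1 array a group no p-value was computed, and array number limits precision.

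Named genes were the probes of Lamp2 and Hspa8, the 20 highest and 20 lowest genes, up to 6 members of each list in each direction, other list members as values, up to 15 bounds in each direction and 5 genes whose difference with LDL exceeded that without by most. Genes outside that rule (those on the Y chromosome and single genes named for their chromosome) were chosen after their values were seen. The members and gene lists were chosen with earlier results of these data known. Of the marker lists, the lymphocyte list had 4 of 12 members measured (median 0.80), the adipocyte list 4 of 10 (median 1.43), the neural list 6 of 10 (median 0.44), the bone list 5 of 10 (median -0.54) and the pericyte list 7 of 9 (median 0.07). Processing alternatives numbered 15, 1 of them chosen after seeing the data. Sequence and summaries of 1 chromosome, and some genes, are not reported here. Work used Python 3.11.15, numpy 2.4.6, pandas 2.3.3, statsmodels 0.14.6, matplotlib 3.10.9 and limma 3.58.1 in R 4.3.3. The calculation was tested on simulated data.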

Additional observations from a re-analysis of the deposited data

Results flagged for a closer look

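Some named genes differed by at least 1.5-fold in opposite directions with and without LDL, which was not tested with 1 array a group. L2AKO minus WT was -1.53 with LDL and 1.66 without for Lpar4, a lysophosphatidic acid receptor, -1.39 and 3.08 for 9130019O22Rik, 1.84 and -0.64 for the olfactory receptor gene Olfr297, and 2.81 and -1.02 for Iqsec3. Among list medians with opposite signs, those farther from 0 in both media than the spot SD of 0.0730 were 0.27 with LDL and -0.08 without for ribosomal proteins, -0.0868 and 0.149 for vascular calcification and bone, and -0.20 and 0.12 for Hox genes. That SD does not measure the spread of list medians between arrays. Over the processing alternatives these medians with LDL took both signs. They ran from -0.0069 to 0.69 for ribosomal proteins, -0.13 to 0.33 for calcification and -0.47 to 0.22 for Hox genes. The array L2AKOLDL alone lay on the second slide.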

How the results depend on the processing

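Under 15 alternatives all 340 named genes at least 2-fold apart kept their sign, and 252 stayed at least 2-fold apart under each. Of 12 lists with a median of at least 1.5-fold, 10 kept the sign of it and 5 its size. Scaling by the spike-ins gave 2195 genes higher and 739 lower (74.8% higher), 9 antigen presentation members higher and 2 cholesterol members lower. Median scaling gave 60.05% higher and 4 cholesterol members lower. Normexp with quantile normalisation gave 851 genes lower and 3 cholesterol members lower, and the authors' deposited values 4 cholesterol members lower. Without a filter on dim probes 1887 genes were higher and 2661 lower, and the medians of smooth muscle markers (-0.54) and lymphocyte markers (-0.26) turned negative, since probes near background then enter. Requiring 1 array above background gave 1672 genes higher. Leaving out the dimmest 25% gave 662 higher and 796 lower, with 12 interferon-stimulated genes higher and 4 cholesterol members lower, from fewer genes tested. Without chromosomes 12 and X, an alternative chosen after seeing the data, both counts stayed within 1.5-fold of those over all chromosomes. Over the alternatives the median of chromosome 12 ran from 0.58 to 1.22 and that of the X chromosome from -0.77 to -0.28. The cause of the other shifts was not tested. No paired analysis was possible because each group had 1 array. With 1 array a group the data give no biological error, and dim genes and bounds rest on signal near background.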
